A study of Mus musculus with 4 samples.

Results

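The anti-apoptotic BCL2 genes Bcl2, Bcl2l1, Mcl1, Bcl2a1b and Bcl2a1d and the PIM kinase genes Pim1, Pim2 and Pim3 were followed in mouse T helper 2 (Th2) cells cultured with or without HU-308. These 8 genes were taken by symbol from a deposited table of 54532 genes. Each library came from wild-type CD4+ T cells that had been naive at the start and were then polarised towards Th2, in a setting the labels give as the bleomycin model of systemic sclerosis (BLM-SSc). The cultures of 1 group carried HU-308, a synthetic agonist selective for cannabinoid receptor 2, and those of the other carried DMSO, the vehicle. All were restimulated on day 4 with beads against CD3 and CD28 and collected 12 h later, and each group had 2 libraries. Strain, age and the number of mice are not given in the labels, nor is it said whether libraries of a group came from separate cultures, so p-values measure the spread between these 4 libraries only, which may be technical.

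BCL2, BCL-XL (the long product of Bcl2l1), MCL1 and the A1 proteins (from the Bcl2a1 genes) sit on the mitochondrial outer membrane and keep the pore-forming proteins BAX and BAK inactive. BH3-only proteins such as BIM, PUMA and BAD oppose them by occupying their binding groove. PIM1, PIM2 and PIM3 are serine/threonine kinases that need no activating phosphorylation, so their activity follows their abundance. Their transcription is raised by cytokine receptors through JAK and STAT proteins, and they favour survival in part by phosphorylating BAD. In T cells, cytokines of the common gamma chain family such as IL-2, IL-4 and IL-7 maintain Bcl2, Mcl1 and PIM transcripts.

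The libraries held 16145298 to 20479254 counts. Replicates differed beyond sampling noise, with a chi-square per degree of freedom of 38.1 between the DMSO libraries and 26.1 between the HU-308 libraries. T cell genes were well expressed. Cd3e was at 164.0 and 176.1 CPM (read counts relative to library size, with TMM scaling) with DMSO and at 210.8 and 226.9 CPM with HU-308. Gata3, the Th2 lineage factor, was at 492.6 and 486.3 CPM with DMSO and at 384.6 and 302.4 CPM with HU-308. Il4 was at 26.4 and 27.8 CPM with DMSO and at 10.9 and 9.71 CPM with HU-308. Of 9 T cell and Th2 markers, groups did not overlap for 2 on the higher side (background 25.9% of tested genes) and 3 on the lower side (25.4%). Of 10 myeloid and mast cell markers, 4 had no read in any library (Lyz2, Fcer1a, S100a8 and S100a9) and 4 had at most 12 reads in any library. The other 2 were expressed, with 444 to 1452 reads for Adgre1, which encodes the macrophage antigen F4/80, and 156 to 371 reads for Cpa3, a mast cell protease gene. The groups overlapped for both. The summed level of the 10 markers was 17.8 and 34.9 FPKM with DMSO and 17.5 and 32.5 FPKM with HU-308. In bulk RNA, fewer cells of a type and less RNA per cell cannot be told apart. In each group all 8 genes had a higher CPM in replicate 2 than in replicate 1, a pattern seen in 35.9% of tested genes.

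The genes divided by level and by their difference between the groups. Bcl2, Bcl2l1, Pim1 and Pim2 had lower transcript levels in both HU-308 libraries than in either DMSO library, at 35.5%, 46.5%, 51.4% and 49.9% of the DMSO level. Mcl1 and Pim3, the other well-expressed members of their families, stood at 82.8% and 107.8% of the DMSO level with overlapping groups. The Bcl2a1 genes were scarce in every library. Of the 8 genes, 0 passed an adjusted p of 0.05 in the edgeR quasi-likelihood test over 14316 genes, which called 0.314% of genes (0.231% lower and 0.0838% higher). The counts in this paragraph are no independent support, since the 8 genes were chosen with earlier results of these data known. At an unadjusted p under 0.05, 4 of the 8 genes were lower (background 9.97% of tested genes) and 0 higher (8.79%). DESeq2 gave 7 of them an adjusted p and called 4 lower (Bcl2, Bcl2l1, Pim1 and Pim2) and 0 higher, where it called 4.4% of genes lower and 2.39% higher. The authors' deposited table also has an adjusted p under 0.05 and a lower level for these 4 (background 2.07%), while limma, on counts or on FPKM, called none of the 8. Groups did not overlap for 4 genes on the lower side (background 25.4%) and for 1, Bcl2a1b, on the higher side (25.9%). Bcl2a1b passed the count filter only through the HU-308 libraries, so its place in this count is no result.

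**Figure D1:**
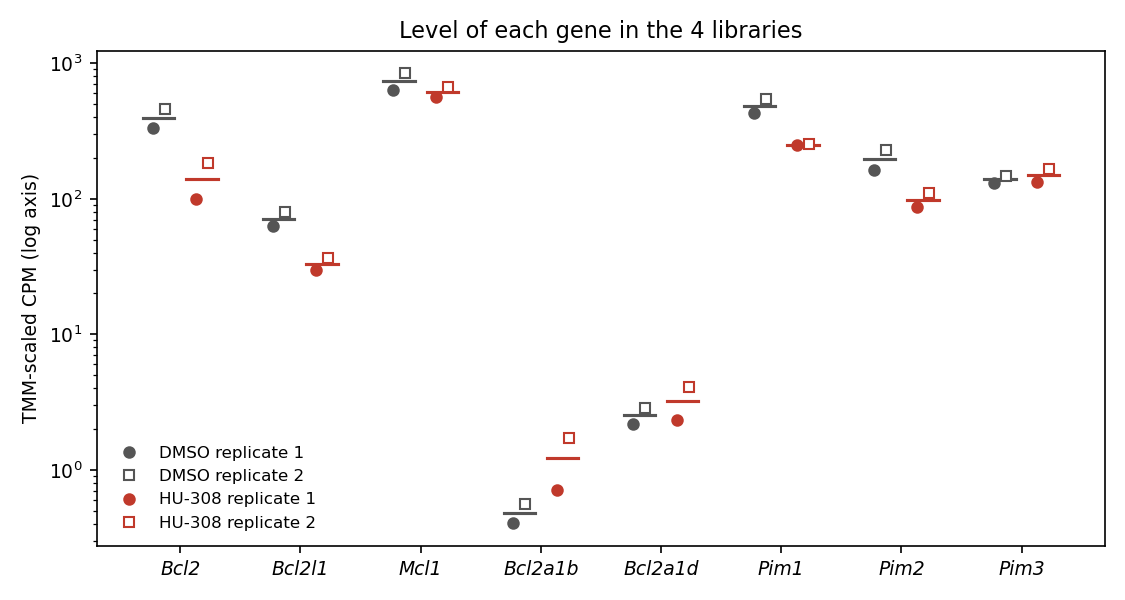
TMM-scaled CPM on a log axis for the 8 genes in each library, DMSO in grey and HU-308 in red, with filled circles for replicate 1, open squares for replicate 2 and a bar at the group mean (n = 2). For Bcl2, Bcl2l1, Pim1 and Pim2 both red points lie below both grey points, while those of Mcl1, Pim3 and Bcl2a1d overlap and the Bcl2a1b points lie near or below 1 CPM except in HU-308 replicate 2, at 1.72 CPM.

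Bcl2 (ENSMUSG00000057329; GRCm38 chromosome 1, 106538178 to 106714274, minus strand) encodes the founding survival protein of the family. The 300 bases around its start site, from 250 before to 50 after it (RefSeq, GRCm38.p6), are shown with those of Mcl1, since the ratio between these survival genes differed most between the groups among the 6 ratios examined. Capitals mark the CRE core TGACG, the inner part of the site bound by CREB family factors, on either strand.

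Bcl2 (chr1:106714241-106714540, minus strand): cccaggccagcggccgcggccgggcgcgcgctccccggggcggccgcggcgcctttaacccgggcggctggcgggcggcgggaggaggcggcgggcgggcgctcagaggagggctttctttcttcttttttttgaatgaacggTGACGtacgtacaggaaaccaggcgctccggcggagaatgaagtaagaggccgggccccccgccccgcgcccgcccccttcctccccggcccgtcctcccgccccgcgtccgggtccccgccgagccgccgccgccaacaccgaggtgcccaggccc

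Mcl1 (chr3:95658471-95658770, plus strand): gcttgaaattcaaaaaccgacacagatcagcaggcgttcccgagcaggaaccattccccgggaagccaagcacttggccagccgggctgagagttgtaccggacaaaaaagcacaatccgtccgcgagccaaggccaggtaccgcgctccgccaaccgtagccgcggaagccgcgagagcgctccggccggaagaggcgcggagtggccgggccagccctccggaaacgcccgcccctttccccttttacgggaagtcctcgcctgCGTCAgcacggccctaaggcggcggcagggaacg

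Bcl2 held the core at 107 bases before its start site and Mcl1 held it on the opposite strand, beginning 16 bases after its own start site. That RefSeq start lies 67 bases before the Mcl1 gene of the deposited table, so by the deposited coordinates the core lies before the gene. The core was present in 4 of the 11 start-site windows of the 8 genes, the other two being those of Bcl2a1b and Bcl2a1d, and in 20.8% of 32851 mouse promoter windows of this length. GC content was 76.0% for Bcl2 and 65.7% for Mcl1, against a median of 52.7% over all windows. A match is a run of letters and not evidence of binding.

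Bcl2 transcript stood at 332.4 and 459.5 CPM with DMSO and at 99.1 and 182.2 CPM with HU-308. Both HU-308 values lay below both DMSO values, with the lowest DMSO library 1.82-fold above the highest HU-308 library. The HU-308 libraries themselves differed 1.84-fold from each other, the widest such gap among the well-expressed genes of the 8. The mean went from 396.0 ± 89.9 CPM (SD, n = 2) to 140.6 ± 58.8, a log2 fold change of −1.49 ± 0.32 (SE; 95% interval −2.29 to −0.70; edgeR adjusted p = 0.112). DESeq2 gave an adjusted p of 9.94e-05 and the authors' deposited table holds 1.74e-05. This was the lowest log2 fold change of the 8 genes in the edgeR fit with all libraries. An antisense gene, D630008O14Rik, shares 6.09% of the exon bases of Bcl2 but was given only 3 to 19 reads per library.

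Bcl2l1 (ENSMUSG00000007659; chromosome 2, 152780668 to 152831728, minus strand) makes BCL-XL, which in activated T cells is raised by CD28 costimulation. Its counts do not separate the long anti-apoptotic isoform from the short pro-apoptotic isoform BCL-XS. Levels were 63.1 and 79.9 CPM with DMSO and 30.0 and 36.4 CPM with HU-308. The lower DMSO library was thus 1.73-fold above the higher HU-308 library. The mean went from 71.5 ± 11.9 to 33.2 ± 4.55 CPM (log2 fold change −1.11 ± 0.19; 95% interval −1.57 to −0.65; edgeR adjusted p = 0.0822; DESeq2 adjusted p = 0.000315). Of its 3 annotated start sites, the innermost had a STAT-type site with a 4-base spacer, TTCTTCAGAA, beginning 4 bases before it, a motif (TTCNNNNGAA) found in 6.95% of promoter windows. The 3-base form, TTCNNNGAA, was in none of the 11 start-site windows of the 8 genes and in 8.3% of all windows.

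Mcl1 (ENSMUSG00000038612; chromosome 3, 95658788 to 95663176, plus strand) encodes a short-lived survival protein that T cells need at every stage. It was the most abundant of the 8 transcripts, at 639.6 and 843.6 CPM with DMSO and 562.1 and 665.9 CPM with HU-308. HU-308 replicate 2 lay above DMSO replicate 1, so the groups overlapped. The log2 fold change was −0.27 ± 0.19 with a 95% interval from −0.74 to 0.19 (edgeR adjusted p = 0.479; DESeq2 adjusted p = 0.569). The interval includes no difference, but also a level as low as 1.67-fold below DMSO.

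Bcl2a1b (ENSMUSG00000089929; chromosome 9, 89199209 to 89207827, plus strand) and Bcl2a1d (ENSMUSG00000099974; chromosome 9, 88723285 to 88731914, minus strand) are near-identical copies that encode A1, an NF-kB-induced survival protein best known in granulocytes, mast cells and activated lymphocytes. Of the 50-base windows of their longest transcripts, 57.6% in Bcl2a1b and 79.5% in Bcl2a1d also occur in another Bcl2a1 gene, so the split of reads between the copies is uncertain. The protein-coding gene Gm29094, on the same strand, shares 49.1% of the exon bases of Bcl2a1b and was given no read in any library. Bcl2a1b was given 7 and 11 reads with DMSO and 12 and 29 with HU-308, and it entered the test only through the HU-308 libraries, the group where it was higher (filter 0.583 CPM). Bcl2a1d was given 38 and 56 reads with DMSO and 39 and 69 with HU-308, with overlapping groups. Their log2 fold changes were 1.31 ± 0.62 (95% interval −0.22 to 2.84) and 0.34 ± 0.40 (−0.66 to 1.34), with edgeR adjusted p of 0.319 and 0.682. Without HU-308 replicate 2 these were 0.55 and −0.13. The copies Bcl2a1a and Bcl2a1c were given no read, and with all 4 summed the libraries held 45 and 67 reads with DMSO and 51 and 98 with HU-308 (log2 fold change 0.55 ± 0.41, edgeR adjusted p = 0.507). The summed level of 5 B cell markers was 21.2 and 18.3 FPKM with DMSO and 44.6 and 35.7 FPKM with HU-308, mostly from Ighm. EdgeR called 0 of the 4 markers tested, and 1, Ighm, was higher at an unadjusted p under 0.05 and with DESeq2. The median log2 fold change of the 4 was 0.73. Groups did not overlap for 3 on the higher side (background 25.9%), which were Ighm, Cd79b and Pax5. Cd79b was at 2.13 and 2.86 CPM with DMSO and at 3.80 and 4.21 CPM with HU-308. Pax5 had only 10 to 14 reads. Like Bcl2a1b, Pax5 entered the test only through the HU-308 libraries, the group where it was higher, and with it this count and median. Cd79a overlapped, and Ms4a1, with 2 to 8 reads, was not tested. Cpa3 was at 9.0 and 18.3 CPM with DMSO and at 13.7 and 22.0 CPM with HU-308. The part of B cells or mast cells in the Bcl2a1 values was not tested.

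**Figure D2:**
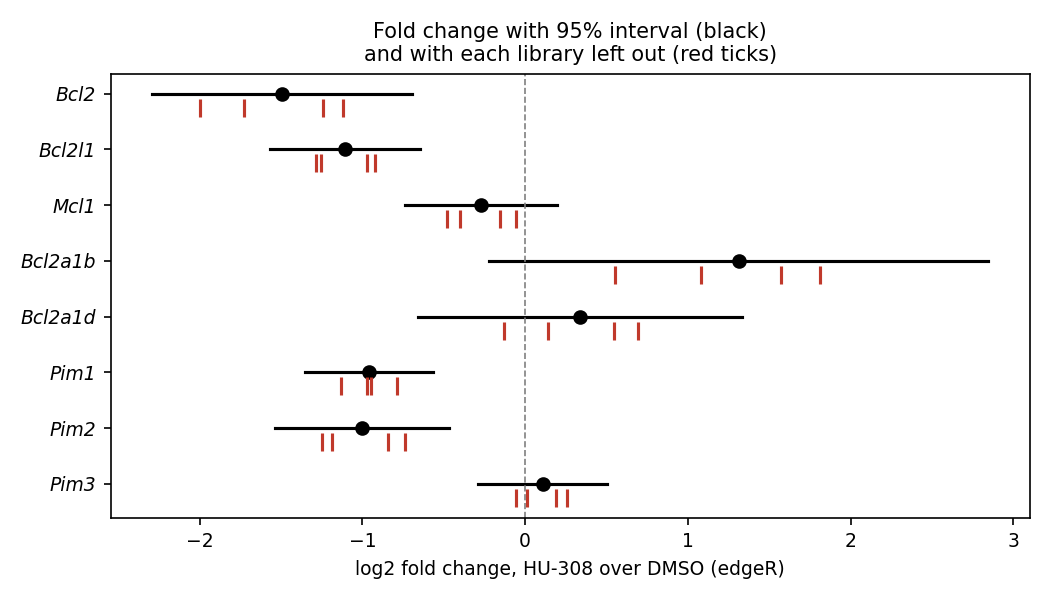
Log2 fold change of HU-308 over DMSO for the 8 genes (edgeR), with black points and lines for the estimate and its 95% interval over the 4 libraries and red ticks for the estimate with each library left out in turn. The intervals of Bcl2, Bcl2l1, Pim1 and Pim2 lie below 0, while those of the other 4 genes include 0, and the ticks of Pim3 and Bcl2a1d fall on both sides of 0.

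Pim1 (ENSMUSG00000024014; chromosome 17, 29490812 to 29496111, plus strand) is the kinase gene of the family first found at a proviral integration site. Start-site sequences are shown for Pim1, which has 2 annotated starts, and for Pim3, since groups overlapped for Pim3 and not for Pim1. Capitals mark a FOXO site (GTAAACA) and an E-box of the kind bound by MYC (CACGTG), found next to each other at the inner start of Pim1.

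Pim1, outer start (chr17:29490535-29490834, plus strand): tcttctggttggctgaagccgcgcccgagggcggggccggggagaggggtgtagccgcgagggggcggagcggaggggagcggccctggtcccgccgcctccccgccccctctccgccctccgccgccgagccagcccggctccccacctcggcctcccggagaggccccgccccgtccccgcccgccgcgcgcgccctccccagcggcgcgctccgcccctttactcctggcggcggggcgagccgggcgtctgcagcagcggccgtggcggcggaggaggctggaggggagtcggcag

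Pim1, inner start (chr17:29492835-29493134, plus strand): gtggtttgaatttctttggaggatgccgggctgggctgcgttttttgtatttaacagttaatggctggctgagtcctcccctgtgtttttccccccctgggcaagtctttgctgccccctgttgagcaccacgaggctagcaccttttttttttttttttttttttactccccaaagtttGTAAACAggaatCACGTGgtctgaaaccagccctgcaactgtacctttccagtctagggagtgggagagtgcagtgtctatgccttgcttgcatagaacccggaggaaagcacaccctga

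Pim3 (chr15:88861944-88862243, plus strand): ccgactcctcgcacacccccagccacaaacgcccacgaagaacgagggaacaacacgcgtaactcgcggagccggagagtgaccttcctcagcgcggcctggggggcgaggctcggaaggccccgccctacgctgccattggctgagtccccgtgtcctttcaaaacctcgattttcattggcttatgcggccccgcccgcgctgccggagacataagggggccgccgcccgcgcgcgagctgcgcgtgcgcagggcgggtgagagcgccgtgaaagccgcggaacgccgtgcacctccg

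The FOXO letters begin 70 bases and the E-box 58 bases before the inner start. They occur in 3.65% and 7.15% of all promoter windows and in no other start-site window of the 8 genes. The outer Pim1 window (GC content 81.3%) and the Pim3 window (69.0%) held none of the 5 motifs searched, which were the pair of STAT forms, the FOXO site, the E-box and the CRE core, each on both strands. The Pim2 window and the middle and outer windows of Bcl2l1 held none either. No binding was measured here.

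Pim1 transcript was at 431.8 and 541.8 CPM with DMSO and at 248.4 and 252.1 CPM with HU-308. The HU-308 libraries differed only 1.02-fold from each other, and the lower DMSO library was 1.71-fold above the higher of them. The mean went from 486.8 ± 77.8 to 250.2 ± 2.64 CPM (log2 fold change −0.96 ± 0.16; 95% interval −1.35 to −0.57; edgeR adjusted p = 0.0804). DESeq2 gave an adjusted p of 0.000284 and the authors' deposited table holds 0.00043. The antisense gene Gm26885, which shares 14.5% of the annotated exon bases of Pim1, was given at most 2 reads in any library.

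Pim2 (ENSMUSG00000031155; chromosome X, 7878262 to 7883432, plus strand) encodes a kinase that supports translation and survival in lymphocytes independently of mTOR. It was at 164.3 and 230.2 CPM with DMSO and at 86.8 and 109.9 CPM with HU-308. The lower DMSO library stood 1.5-fold above the higher HU-308 library. The log2 fold change was −1.0 ± 0.22 (95% interval −1.54 to −0.47; edgeR adjusted p = 0.112; DESeq2 adjusted p = 0.00232).

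Pim3 (ENSMUSG00000035828; chromosome 15, 88862186 to 88865726, plus strand), the least studied kinase of the family in T cells, was at 131.5 and 146.9 CPM with DMSO and at 134.1 and 166.1 CPM with HU-308. These ranges overlapped. Its log2 fold change was 0.11 ± 0.16 (95% interval −0.29 to 0.50; edgeR adjusted p = 0.75; DESeq2 adjusted p = 0.869), and its sign was not stable, with −0.055 without HU-308 replicate 2.

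Per transcript length, the order of levels with DMSO was Mcl1 (216.0 ± 42.1 FPKM, reads scaled by the authors for gene length and library depth), Pim1 (183.7 ± 29.4), Pim2 (70.3 ± 16.6), Pim3 (57.1 ± 4.49), Bcl2 (43.0 ± 9.79), Bcl2l1 (15.5 ± 2.59), Bcl2a1d (2.91 ± 0.545) and Bcl2a1b (0.588 ± 0.136). Mcl1 and Pim1 overlapped in this order, as did Pim2 and Pim3, and the other neighbours did not. With HU-308 the order was Mcl1 (177.8 ± 19.7 FPKM), Pim1 (93.9 ± 0.157), Pim3 (61.2 ± 8.69), Pim2 (34.8 ± 5.46), Bcl2 (15.2 ± 6.22), Bcl2l1 (7.17 ± 0.918), Bcl2a1d (3.67 ± 1.4) and Bcl2a1b (1.47 ± 0.848). Neighbours in the second order did not overlap. Pim2 and Pim3 were the 1 pair that changed places.

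The makeup of each family differed between the libraries of the 2 groups. A two-sided exact permutation test gave p = 0.333 for each share and sum, the smallest this design allows. Shares of a sum are linked, so they restate the values of the single genes. Pim3 made up 19.6% and 17.4% of the summed PIM FPKM with DMSO and 30.6% and 33.7% with HU-308. Pim1 made up 59.2% and 59.0% with DMSO and 52.2% and 47% with HU-308. The summed PIM level was 275.3 and 346.8 FPKM with DMSO and 179.8 and 200.1 FPKM with HU-308, so the sum was also lower in both HU-308 libraries. Among the anti-apoptotic genes Mcl1 made up 77.9% and 77.5% of the summed FPKM with DMSO and 88.7% and 84.9% with HU-308. The share of Bcl2 was 15.1% and 15.8% with DMSO and 5.84% and 8.67% with HU-308. That of Bcl2l1 was 5.72% and 5.47% with DMSO against 3.53% and 3.46% with HU-308. The summed level of the 5 anti-apoptotic genes was 239.0 and 317.0 FPKM with DMSO and 184.7 and 225.8 FPKM with HU-308.

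**Figure D3:**
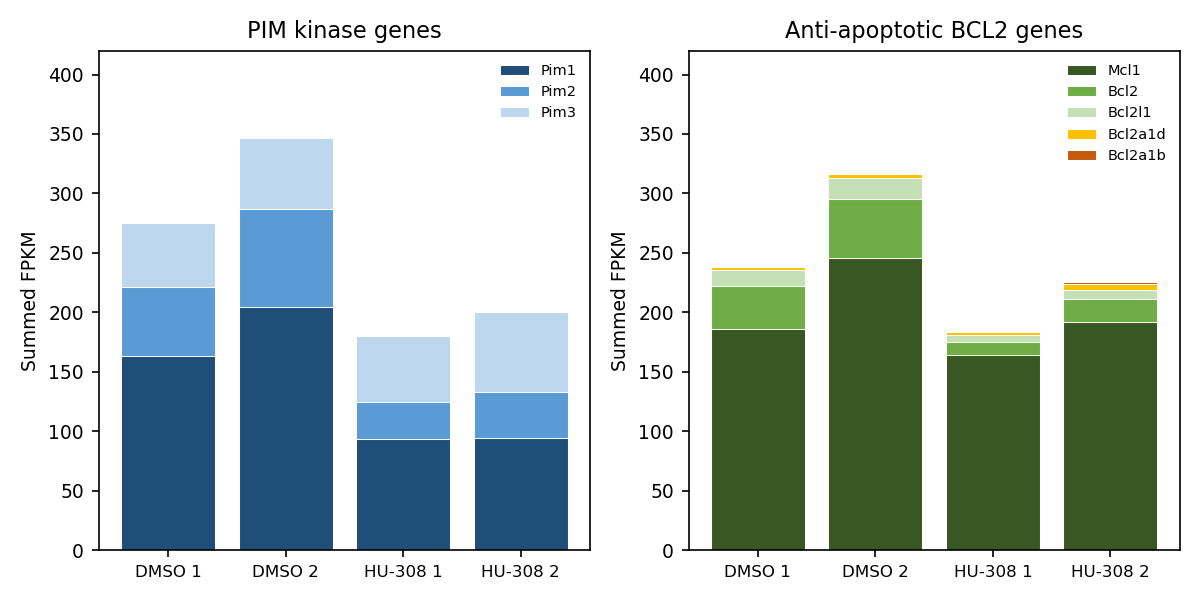
Stacked FPKM of the PIM kinase genes (left, blue shades) and of the anti-apoptotic BCL2 genes (right, green and orange shades) in each of the 4 libraries; each segment is the level of 1 gene in 1 library, with both axes starting at 0. The Pim3 segment keeps a similar height (53.9 to 67.3 FPKM) while those of Pim1 and Pim2 are shorter in the HU-308 libraries, and Mcl1 is the largest segment of its family in every library.

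Ratios within a library do not depend on how libraries are scaled to each other. The log2 ratio of Pim3 to Pim1 was −1.59 and −1.76 with DMSO and −0.77 and −0.48 with HU-308, a difference of 1.05. That of Pim3 to Pim2 differed by 1.09, from −0.12 and −0.44 to 0.83 and 0.80. Pim2 and Pim1 kept closer company, with a ratio of −1.48 and −1.32 with DMSO and −1.60 and −1.28 with HU-308 and a difference of −0.041. In the other family, the ratio of Mcl1 to Bcl2 differed by 1.27 between the groups and that of Mcl1 to Bcl2l1 by 0.83, while Bcl2l1 to Bcl2 differed by 0.44 with values of −1.39 and −1.52 against −0.72 and −1.31. Leaving out HU-308 replicate 1 made the last difference 0.14, and leaving out replicate 2 of that group made it 0.74. The groups did not overlap for 5 of these 6 ratios, Pim2 to Pim1 being the exception. The ratios reuse the same genes, so these 5 are not separate observations. The share without overlap over other gene pairs was not computed. In a two-sided exact permutation test of 2 libraries against 2, those 5 reached p = 0.333, the smallest this design allows (0.40 adjusted over the 6), and Pim2 to Pim1 had p = 1.

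More of the tested pro-apoptotic genes of the family lay above DMSO than below it. Of 11 BH3-only and effector genes 9 were tested, with a median log2 fold change of 0.64 against 0.02 over all tested genes, and 0 were called in either direction by edgeR. At an unadjusted p under 0.05, 6 were higher (background 8.79%) and 0 lower (9.97%), and DESeq2 called 2 higher (2.39%). This list was chosen with earlier results of these data known, so its counts and median are no independent support. The groups did not overlap for 6 on the higher side (25.9%) and for 3 on the lower side (25.4%), the latter being Bid (−0.39 ± 0.20), Pmaip1, which encodes NOXA (−0.20 ± 0.16), and the pore-forming Bak1 (−0.12 ± 0.13). The 2 called by DESeq2 were Bbc3, which encodes PUMA, and Bcl2l11, which encodes BIM. Bbc3 was at 6.06 and 7.0 CPM with DMSO and at 14.4 and 23.6 CPM with HU-308 (log2 fold change 1.54 ± 0.30, edgeR adjusted p = 0.0956, DESeq2 adjusted p = 0.000509). Bcl2l11 was at 13.7 and 15.7 CPM with DMSO and at 25.1 and 31.9 CPM with HU-308 (0.96 ± 0.20, edgeR adjusted p = 0.11, DESeq2 adjusted p = 0.0116). Bik and Bad, the latter a BH3-only protein that PIM kinases phosphorylate, had log2 fold changes of 0.69 ± 0.23 and 0.64 ± 0.21 (edgeR adjusted p = 0.205 and 0.204). The rest of the 6 were Bmf (1.27 ± 0.33) and the pore-forming Bax (0.56 ± 0.15), with edgeR adjusted p of 0.142 and 0.151. Among the remaining anti-apoptotic genes only Bcl2l2, which encodes BCL-W, was tested (−0.14 ± 0.30).

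Downstream of the BCL2 proteins, the caspase and apoptosome list had 0 of 10 genes called and a median of −0.04, which was 0.21 without DMSO replicate 1 or without HU-308 replicate 2. Its widest values were those of Diablo, the mitochondrial IAP antagonist (−0.85 ± 0.22), the initiator caspases Casp9 (0.65 ± 0.19) and Casp8 (−0.58 ± 0.13), and Htra2 (0.58 ± 0.53). DESeq2 called 1 of the 10, Casp8, lower (adjusted p = 0.0483, background 4.4% of genes) and 0 higher (2.39%). At an unadjusted p under 0.05 by edgeR, 3 were lower (9.97%) and 1 higher (8.79%). The groups did not overlap for 4 on the lower side (25.4%) and 3 on the higher side (25.9%). Inhibitors of apoptosis and the caspase 8 inhibitor FLIP (Cflar) had 0 of 6 called and a median of −0.12 (0.0038 without DMSO replicate 2, and −0.020 or −0.21 when replicate 1 or 2 of HU-308 was left out), with Birc6 at −0.30 ± 0.13, Cflar at −0.28 ± 0.24, Birc2 at 0.20 ± 0.21 and Birc5 at 0.19 ± 0.17. Of 8 genes for turnover of MCL1 protein 7 were tested and 0 called, with a median of −0.16 (−0.096 without HU-308 replicate 1). Huwe1, a ubiquitin ligase for MCL1, was at −0.59 ± 0.15, Usp9x, a deubiquitinase that stabilises it, at −0.30 ± 0.14, and the ligase adaptors Fbxw7 and Btrc at −0.24 ± 0.16 and 0.24 ± 0.19.

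**Figure D4:**
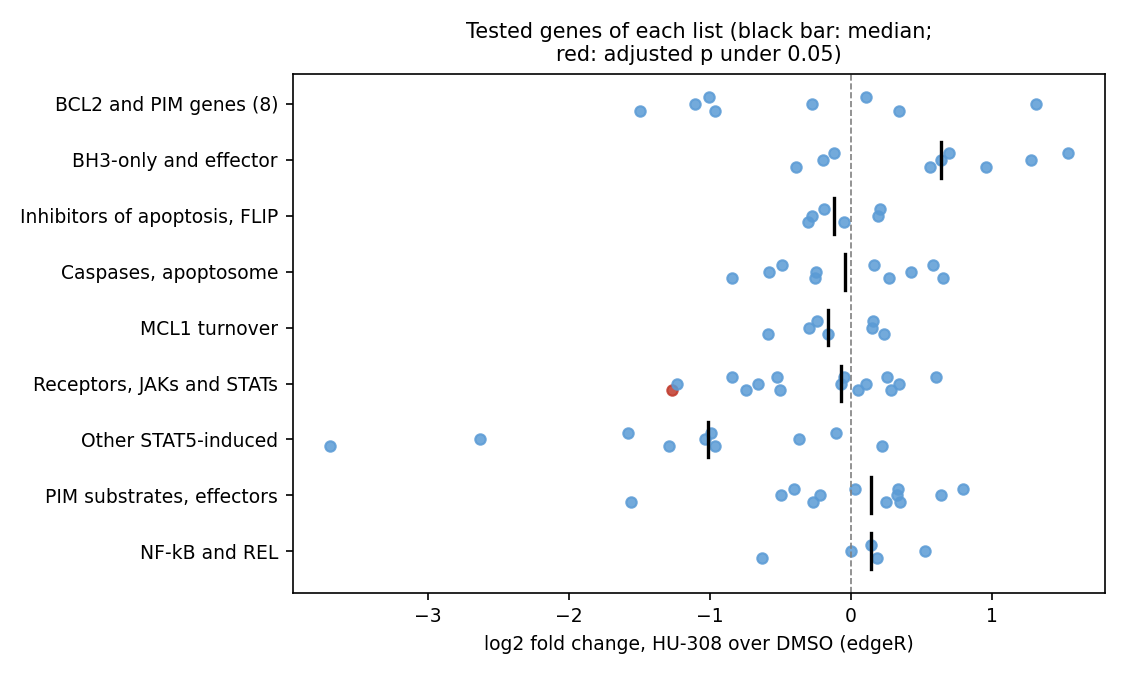
Log2 fold change of HU-308 over DMSO (edgeR) for the 8 genes (top line, no median drawn) and for the tested genes of 8 pathway lists, 1 point per gene, with a black bar at the median of each list and red for an adjusted p under 0.05. The only red point is Il6st, the median of the BH3-only list is 0.64, and that of the other STAT5-induced genes is −1.01.

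Upstream, 15 receptor, Janus kinase and STAT genes had a median of −0.07, with 1 lower and 0 higher by edgeR. The median was −0.33 without DMSO replicate 1, and −0.12 or −0.32 when replicate 1 or 2 of HU-308 was left out. At an unadjusted p under 0.05, 6 of the 15 were lower (background 9.97%) and 0 higher, and the groups did not overlap for 7 on the lower side (25.4%) and 3 on the higher side (25.9%). The 1 called by edgeR was Il6st, the signalling receptor of the IL-6 family, which was at 179.4 and 169.5 CPM with DMSO and fell to 77.8 and 67.3 CPM with HU-308 (log2 fold change −1.27 ± 0.14, edgeR adjusted p = 0.0495). Without HU-308 replicate 2 its adjusted p was 0.113, and with library-size scaling, a floor of 1 CPM or limma on FPKM it lay between 0.0521 and 0.112. The IL-2 and IL-4 receptor chains Il2ra (−1.24 ± 0.36), Il4ra (−0.84 ± 0.25) and Il2rb (−0.74 ± 0.17) were lower in both HU-308 libraries without passing the edgeR threshold (adjusted p = 0.171, 0.171 and 0.127), and DESeq2 called each of them lower. The rest of the 6 were Stat3 (−0.66 ± 0.21) and the IL-7 receptor chain Il7r (−0.52 ± 0.15), with edgeR adjusted p of 0.192 and 0.170. The 3 on the higher side were Il6ra (0.61 ± 0.27), the common gamma chain Il2rg (0.34 ± 0.18) and Stat5b (0.28 ± 0.16). Their edgeR adjusted p was 0.293, 0.352 and 0.385. Stat5a had a log2 fold change of 0.26 ± 0.21 with overlapping groups. The receptor chains thus did not share a direction. Among 10 other STAT5-induced genes edgeR called 0, the median was −1.01, and 7 were lower at an unadjusted p under 0.05 (background 9.97%) and with DESeq2 (4.4%). The largest values were those of Lta (−3.70), Lif (−2.63), Osm (−1.58) and Socs2 (−1.29). Earlier results of these data had already shown these 4 as low, and the list was chosen with earlier results known. The count of 7 and the median are therefore no independent support. The other 3 of the 7 were Ccnd2 (−1.03), Cdk6 (−0.99) and Xbp1 (−0.96). The rest of the 10 were not lower at that threshold. Cish (−0.37 ± 0.32) and Socs1 (−0.11 ± 0.16) had overlapping groups, and Ccnd3 (0.22 ± 0.15) was higher in both HU-308 libraries.

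Genes of PIM substrates and effectors did not share a direction, with a median of 0.14 over 12 genes (0.075 without HU-308 replicate 2) and 0 called by edgeR. Myc, whose protein PIM kinases stabilise, was at 97.4 and 52.9 CPM with DMSO and 34.7 and 16.3 CPM with HU-308 (−1.56 ± 0.43, edgeR adjusted p = 0.159, DESeq2 adjusted p = 0.00252). Unlike the 8 genes, Myc was lower in replicate 2 than in replicate 1 of each group. Cdkn1b, which encodes the cell cycle inhibitor p27, had a log2 fold change of 0.79 ± 0.26 and the phosphatase gene Cdc25a of −0.50 ± 0.18 (edgeR adjusted p = 0.205 and 0.225). The NF-kB subunit genes, of which Rel is known to induce Bcl2a1 and Bcl2l1, had 0 of 5 called and a median of 0.15, which was 0.09 without DMSO replicate 2, and −0.046 or 0.23 when replicate 1 or 2 of HU-308 was left out. Nfkb1 was at −0.63 ± 0.19, Rel at 0.53 ± 0.16, Nfkb2 at 0.18 ± 0.19 and Relb at 0.15 ± 0.19.

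Patterns over the 4 libraries were compared by the root mean square difference of log2 CPM, each gene centred on its own mean, among 5740 other genes whose mean log2 CPM was 5 or more. The nearest to Bcl2 were Cyp51, an enzyme of cholesterol synthesis, and Csrnp1, at 0.16 each, and no gene lay within 0.1. The nearest to Bcl2l1 were the leukotriene receptor gene Cysltr1 (0.015) and Hyou1, an endoplasmic reticulum chaperone (0.05), and 18 genes lay within 0.1. Pim2 had Hspa13 (0.018) and again Hyou1 (0.026) nearest, with 19 genes within 0.1. Pim1 had Jcad (0.035) and Pank3 (0.04), with 13 genes. Mcl1 had Tle3 (0.0099) and Mllt6 (0.012), and Pim3 had Arf5 (0.013) and Ermp1 (0.016), with 270 and 480 genes within 0.1. With 4 libraries many genes have a like pattern, so these names describe the data only.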

How the data were processed

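Per the labels' protocols, RNA came from TRIzol extracts and a SMARTER kit for mRNA served for library preparation. The submitters' processing notes name Bowtie2 2.3.4.3, RSEM 1.3.1, DESeq2 1.4.5 and GRCm38 (mm10), with no role given; annotation release and strand setting are not given in the sources used here. The deposited read counts are whole numbers with no scaling. FPKM values are the authors' own, scaled for library depth and for a gene length that is also deposited. The signal columns are the authors' group means of scaled counts, and were not used for tests. The log2 fold change and the p-value columns are the authors' own comparison, as deposited.

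Counts were tested in R 4.3.3 with edgeR 4.0.16 (filterByExpr with minimum count 10 and minimum total 15, TMM, quasi-likelihood F test, unpaired, 2 residual degrees of freedom, Benjamini-Hochberg over 14316 genes at 0.05). The SE is the absolute log2 fold change over the square root of F. Alternatives were RLE or library-size scaling, other count filters, DESeq2 1.42.0 on the same genes, limma 3.58.1 (voom, or log2 FPKM with pseudocounts of 1 and 0.1), a replicate block and each library left out. Ratios used log2(FPKM + 0.1). The edgeR step was tested on simulated counts. Promoter windows are from RefSeq (GRCm38.p6; all 8 genes matched), and exon overlaps and transcripts from GENCODE mouse release 21, in which 7 of the 8 genes have the same coordinates as in the deposited table (Pim1 does not). The 8 genes and the pathway lists were chosen with earlier results of these data known. Their counts and medians beside the background are therefore no independent support. All list genes called, and up to 4 per list with the largest absolute log2 fold change at a mean log2 CPM of at least 2, are named. Others complete a count or identify the cells (Cd3e, Stat3, Stat5a, Stat5b, Il7r, Il2rg, Il6ra, Bid, Pmaip1, Bak1, Bmf, Bax, Ccnd2, Cdk6, Xbp1, Cish, Socs1, Ccnd3 and the markers). These others were chosen after their values were seen. Results for 1 marker gene are not reported here. Figures were drawn with matplotlib 3.10.9 in Python 3.11.15.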

Additional observations from a re-analysis of the deposited data

How the results depend on the processing

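The number of genes called depended on the test: 12 were higher and 33 lower in the edgeR test, 190 and 371 with no low-count filter, 283 and 520 with DESeq2, and 0 and 0 with limma on FPKM with either pseudocount (2625 and 2629 genes at an unadjusted p under 0.05). Scaling by library size only gave 12 lower and shifted the median of all genes by 0.118 on the log2 scale, and a floor of 1 CPM in 2 libraries gave 20 lower. Leaving out 1 library gave 10 to 93 higher and 27 to 244 lower.

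Bcl2, Bcl2l1, Pim1 and Pim2 had a negative log2 fold change under every alternative run. They passed with no low-count filter (−1.49, −1.10, −0.95 and −1.0) and with DESeq2 (−1.50, −1.11, −0.97 and −1.01), but not with RLE or library-size scaling, a floor of 1 CPM, limma-voom or limma on FPKM. With each library left out, Bcl2 ranged from −2.0 to −1.12, Bcl2l1 from −1.29 to −0.92, Pim1 from −1.13 to −0.79 and Pim2 from −1.25 to −0.74. Without 1 library, Bcl2 passed when HU-308 replicate 2 was left out (adjusted p = 0.0346 by edgeR), and Bcl2l1 and Pim2 when DMSO replicate 1 was (0.0441 and 0.0494). Mcl1 ranged from −0.48 to −0.058, Pim3 from −0.055 to 0.26, Bcl2a1b from 0.55 to 1.81 and Bcl2a1d from −0.13 to 0.69. Pim3 and Bcl2a1d changed sign without HU-308 replicate 2, and the Pim2 to Pim1 ratio without DMSO replicate 2 (0.038) or HU-308 replicate 1 (0.12), in a range from −0.20 to 0.12. The Bcl2l1 to Bcl2 ratio ranged from 0.14 to 0.74, and the medians of the caspase, inhibitor and NF-kB lists changed sign without 1 library. The cause of these differences between settings was not tested. A fit without 1 library rests on 1 residual degree of freedom, and the lone library is assumed to vary like the other group.

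Replicate numbers are shared between the groups, but no label says that they pair libraries. Deviations from the group means of same-numbered libraries correlated at 0.531 over 14316 genes, a hint from the data only. With the replicate block, 2394 genes were higher and 2445 lower (17.1% lower), and Bcl2, Bcl2l1, Mcl1, Pim1 and Pim2 passed (−1.54, −1.10, −0.26, −0.95 and −0.99), on 1 residual degree of freedom. With 2 libraries per group, the intervals of Mcl1 and Pim3 do not exclude modest changes, and counts of the Bcl2a1 genes are too low for a direction.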
